A study of Homo sapiens with 4 samples.

Results

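The unfolded protein response and the integrated stress response were followed through 34 genes in the human liver cancer cell lines Huh7 and HepG2. The genes were those of a named list of chaperones of the endoplasmic reticulum (ER), components of ER-associated degradation, stress sensors, and targets of the transcription factors ATF4, XBP1 and ATF6. All 34 were found among the 46427 gene numbers of the deposited tables. Cells of each line received 20 nM siRNA, either a negative control (NC-siRNA) or one directed at the ubiquitin ligase gene COP1 (COP1-siRNA), and RNA was taken 48 h later. The 2 lines and the 2 siRNAs make 4 groups with 1 library each, so a difference within a line had no replicate behind it. Where a pair of values is given for a line, NC-siRNA comes before COP1-siRNA. Both lines are established cultures, the knockdown was transient, and no drug or other stressor was named for any group. Levels are given in TPM, in which a library's transcripts are scaled for length and to a common total. This is meant to let levels of different genes be set side by side.

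When unfolded proteins build up in the ER, the membrane proteins PERK (gene EIF2AK3), IRE1 (gene ERN1) and ATF6 are activated. PERK phosphorylates the translation factor eIF2-alpha, which lowers protein synthesis but favours translation of ATF4, IRE1 splices the XBP1 mRNA, and ATF6 is cut to release a transcription factor. ATF4 drives genes of amino acid supply and recovery of translation, and it is shared with the integrated stress response, in which other eIF2-alpha kinases sense amino acid shortage, viral RNA or haem deficiency. XBP1 and ATF6 drive the chaperones and the degradation machinery of the ER. Hepatocytes secrete most plasma proteins and therefore carry a large ER. ATF4 protein, cleaved ATF6, spliced XBP1 and phosphorylated eIF2-alpha are not measured by gene-level TPM.

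The DNA elements through which these factors are known to act are short, and they are shown here because several of the genes described later carry them. Promoters from 250 bases before to 50 bases after the gene start were taken from RefSeq (GRCh38.p14), where 31 of the 34 genes had an entry; PDIA3, DERL3 and NUPR1 had none. The start is that of the RefSeq table, and for 9 of the 31 genes, CANX, ASNS, CHAC1 and ATF4 among them, it lay over 250 bases inside the gene's interval in the deposited tables. The ER stress response element (ERSE) is CCAAT, 9 bases of any kind and CCACG, and it was searched on both strands. The capitals mark the fixed bases of copies from 7 promoters.
HSPA5: CCAATcggcggcctCCACG
XBP1: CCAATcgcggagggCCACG
HSP90B1: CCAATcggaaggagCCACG
CALR: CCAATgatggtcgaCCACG
CANX: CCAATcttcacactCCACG
CRELD2: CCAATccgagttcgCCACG
ERO1B: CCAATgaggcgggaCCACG

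These copies lay at chr9:125241391-125241409 on the minus strand for HSPA5, chr22:28800603-28800621 on the minus strand for XBP1 and chr12:103930216-103930234 on the plus strand for HSP90B1. The others were at chr19:12938384-12938402 (minus strand, CALR), chr5:179698778-179698796 (plus strand, CANX), chr22:49918554-49918572 (minus strand, CRELD2) and chr1:236282183-236282201 (plus strand, ERO1B). HSP90B1 held a further copy at chr12:103930321-103930339 on the minus strand. The element stood in 7 of the 31 promoters, or 22.6%, against 15 of the 11553 promoters of genes at 1 TPM or more in at least 1 library, or 0.13%. The genes had been listed partly as known XBP1 and ATF6 targets, so this share describes the list and is not independent of how it was made.

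A related element, ERSE-II, is ATTGG, 1 base and CCACG, and the element of ATF4 with C/EBP factors (CARE) is TGATG, 1 base and AA. Copies from the promoters of ER genes and of amino acid genes are shown with the fixed bases in capitals.
HYOU1: ATTGGaCCACG
SDF2L1: ATTGGtCCACG
HERPUD1: ATTGGgCCACG
ASNS: TGATGaAA
CHAC1: TGATGcAA

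HYOU1 held ERSE-II at chr11:119057380-119057390 and at chr11:119057274-119057284, both on the plus strand. SDF2L1 held it at chr22:21642114-21642124 on the minus strand, and HERPUD1 at chr16:56932025-56932035 on the plus strand. ERSE-II was in 3 of the 31 promoters (9.68%) and in 0.104% of the promoters of those genes. The CARE copies of ASNS (chr7:97872469-97872476) and CHAC1 (chr15:40953262-40953269) were on the minus strand. HERPUD1 and PPP1R15B also held TGATGcAA, which made 4 promoters with CARE (12.9%), against 1.74% of the promoters of those genes. The core of the XBP1 element, TGACGTGG, was found in this list only in the promoter of HYOU1, where it overlapped an ERSE-II copy, and in 0.987% of the promoters of those genes. A match of letters is no proof of a bound site, and a promoter without one may hold the element outside this window or in another spelling.

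The knockdown was visible in both lines, and it was deeper in Huh7. COP1 was 19.7 and 6.18 TPM in Huh7, and 26.9 and 16.1 TPM in HepG2. The tables hold no read counts, so the number of reads per library and the precision of a single value are unknown. The mean read depth over the bases of the 34 genes had a median between 64.9 and 112 in the 4 libraries. Among the genes at 1 TPM or more it went down to between 1.62 and 5.75, so the lowest values rest on few reads. Of 9 hepatocyte markers all were present in every library, while PTPRC, CD3E, HBB and DCN, markers of blood cells and fibroblasts, were listed at 0 in all 4. CD14, PECAM1, CDH5, COL1A1 and COL3A1, further markers of blood, endothelium and fibroblasts, lay between 0 and 7.36 TPM. In bulk RNA, a change in every cell and a change in the share of cells that express a gene cannot be told apart.

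The pathway was well expressed without any named stressor. Every library came from cells transfected with an siRNA, and there was no untransfected group, so levels without transfection are not known. The 34 genes together took 7933 and 6970 TPM in Huh7, which is 0.793% and 0.697% of the library, and 5180 and 5051 TPM in HepG2, which is 0.518% and 0.505%. At least 33 of the 34 genes reached 1 TPM in each library. The exception was DERL3, a derlin of the degradation machinery, which was listed at 0 in both Huh7 libraries and was 1.58 and 0.88 TPM in HepG2 with NC-siRNA and COP1-siRNA. The 8 genes with the highest mean TPM over the libraries were CALR, HSP90B1, ATF4, HSPA5, CANX, PDIA6, XBP1 and PDIA3. In the plot of TPM by library the symbols of a line overlap or nearly overlap for most genes.

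**Figure D1:**
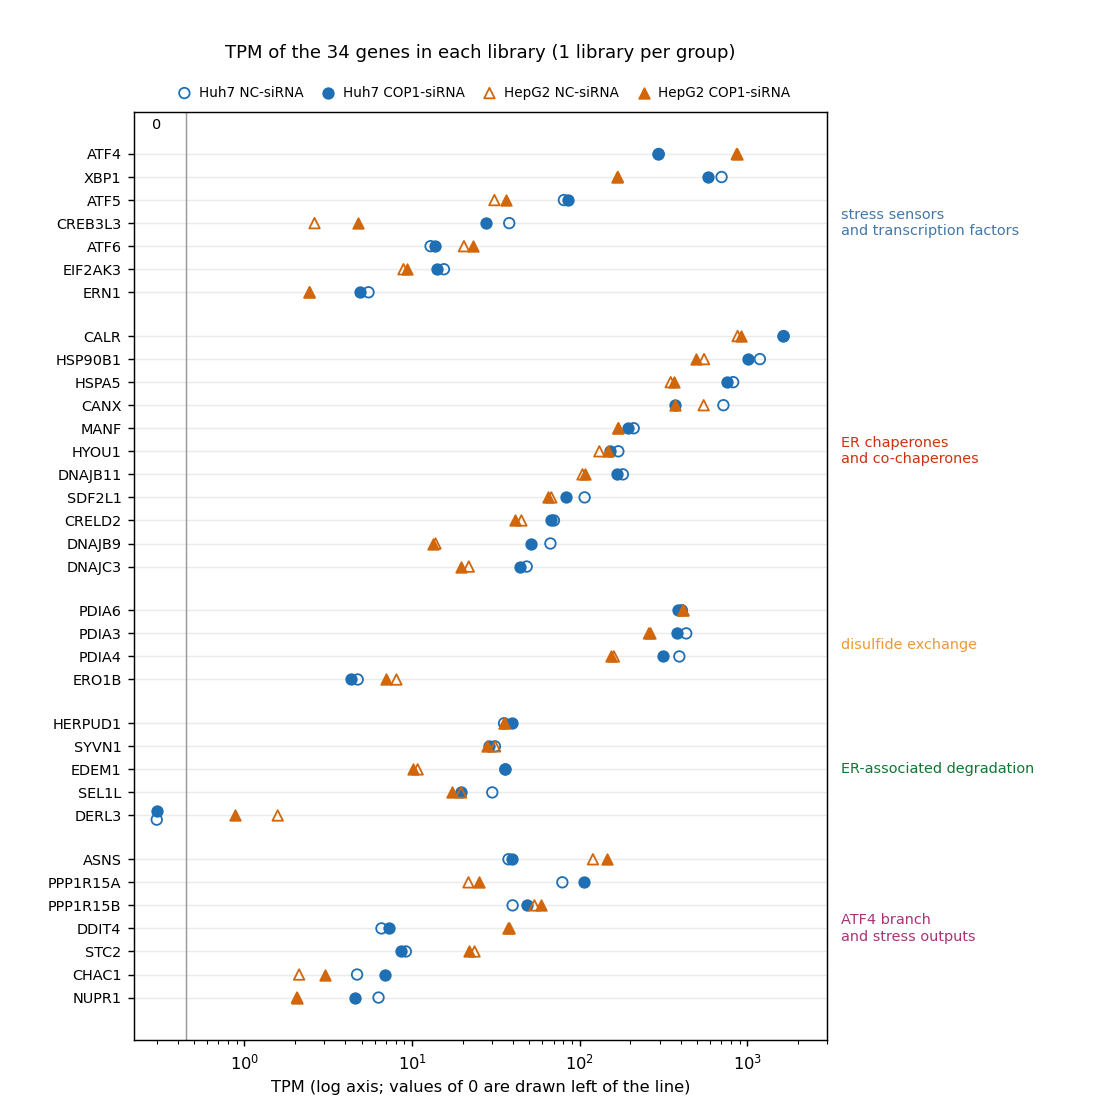
TPM of the 34 genes (log axis) in the 4 libraries, grouped by role and ordered by mean TPM within a role; circles are Huh7, triangles HepG2, open symbols NC-siRNA and filled symbols COP1-siRNA, 1 library each. CALR reached 1646 TPM, DERL3 was at 0 in both Huh7 libraries, and CANX, CHAC1 and CREB3L3 are among the genes whose open and filled symbols stand apart in both lines.

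Among the chaperones, calreticulin (CALR), which binds glycoproteins in the ER lumen, was the most abundant gene of the list. It was 1646 and 1632 TPM in Huh7 and 875 and 920 TPM in HepG2. GRP94 (HSP90B1), the HSP90 of the ER, was 1188 and 1004 TPM in Huh7 and 552 and 495 TPM in HepG2. BiP (HSPA5), the HSP70 of the ER and the classical marker of the response, was 823 and 758 TPM in Huh7 and 349 and 364 TPM in HepG2. For these chaperones both Huh7 libraries lay above both HepG2 libraries, and the siRNA made little difference beside that.

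Calnexin (CANX), the membrane-bound partner of calreticulin in glycoprotein folding, behaved otherwise. Its gene (number 821) lies on the plus strand of chromosome 5, from 179678646 to 179731641 on GRCh38. It was 720 and 371 TPM in Huh7, and 549 and 370 TPM in HepG2. Both COP1-siRNA libraries lay below both NC-siRNA libraries, and with COP1-siRNA the lines stood at nearly the same level. With COP1-siRNA, 51.5% of the control level was measured in Huh7 and 67.5% in HepG2.

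The transcription factor ATF4 was 296 and 293 TPM in Huh7 and 865 and 872 TPM in HepG2. Its locus overlaps MIEF1 on the same strand (20.7 to 48.1 TPM), and how reads were divided between such genes is not known. XBP1 had the opposite order, with 702 and 580 TPM in Huh7 and 169 and 167 TPM in HepG2. ATF5, a stress-regulated relative of ATF4, was 80.5 and 84.6 TPM in Huh7 and 31.0 and 36.5 TPM in HepG2. ATF4 thus stood with the HepG2-high genes and XBP1 and ATF5 with the Huh7-high genes, whichever siRNA was used. The mean read depth of ATF4 was 147 and 198 in Huh7 and 449 and 585 in HepG2. HSPA5, with fewer TPM than ATF4 in HepG2, had a mean read depth of 870 and 1137 there. The rank of ATF4 among the genes thus depends on the unit.

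The sensors themselves were low. ATF6 was 12.9 and 13.7 TPM in Huh7 and 20.4 and 23.1 TPM in HepG2. EIF2AK3 was 15.5 and 14.1 TPM in Huh7 and 8.89 and 9.27 TPM in HepG2, and ERN1 was 5.50 and 4.88 TPM in Huh7 and 2.45 and 2.44 TPM in HepG2. ATF6 was therefore higher in HepG2, and the kinases EIF2AK3 and ERN1 were higher in Huh7, with either siRNA. The mean read depth of ERN1 was only 4.45 to 12.1. CREB3L3, a liver factor that is activated like ATF6, was 38.0 and 27.7 TPM in Huh7 and 2.62 and 4.74 TPM in HepG2, the only sensor or factor whose change with COP1-siRNA went past 1.5-fold.

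Knockdown of COP1 moved this pathway little, and CANX was the main exception. Changes were computed as log2 of the ratio of (TPM + 1) with COP1-siRNA to that with NC-siRNA, for genes with at least 1 TPM in 1 library of the line, which kept 33 of the 34 genes in Huh7 and all 34 in HepG2. No gene of the pathway reached 2-fold, the fold used by the study, which also required a p-value under 0.05. Few genes of any kind did. In Huh7 0.638% of all genes kept were past 2-fold upwards and 0.446% downwards, and in HepG2 0.54% and 0.394%. By this measure COP1 itself fell short of 2-fold in HepG2 (log2 change −0.71), though the study lists it as lower in both lines. With 1 library per group these are descriptions of the libraries, with no test.

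At 1.5-fold, CANX and SEL1L were lower in Huh7, which is 2 of 33 genes or 6.06%, and none was higher. The share of all genes kept was 2.68% lower and 2.8% higher. In HepG2 only CREB3L3 was past 1.5-fold, upwards, which is 1 of 34 genes or 2.94% against 2.56% of all genes kept, and none was lower, against 1.87%. Counts of 1 or 2 genes do not set the pathway apart from the rest of the transcriptome.

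CANX had a log2 change of −0.96 in Huh7 and −0.57 in HepG2. In Huh7 only 67 of 13000 genes, COP1 among them, were as low or lower (0.515%), and in HepG2 298 of 14456 (2.06%). In HepG2 it lay just short of 1.5-fold, which is 0.585 on the log2 scale. Over all scalings, units and filters tried, its Huh7 change ran from −0.96 to −0.89, and its HepG2 change from −0.58 to −0.54.

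SEL1L (gene 6400, chromosome 14, 81471547 to 81533861, minus strand), the adaptor that holds the ubiquitin ligase of ER-associated degradation to its substrates, was 30.1 and 19.7 TPM in Huh7 and 19.6 and 17.2 TPM in HepG2. Its log2 change was −0.59 in Huh7, just past 1.5-fold, and −0.18 in HepG2. It was no longer past 1.5-fold with upper-quartile scaling or with FPKM, the other normalized value deposited. SYVN1, the ligase it works with, was 31.2 and 28.7 TPM in Huh7 and 31.3 and 28.1 TPM in HepG2, with log2 changes of −0.12 and −0.15, so it was nearly level across the libraries.

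CREB3L3 (gene 84699, chromosome 19, 4153631 to 4173054, plus strand) went in opposite directions in the lines, with a log2 change of −0.44 in Huh7 and 0.67 in HepG2. Its mean read depth in HepG2 was 6.52 with NC-siRNA and 14.8 with COP1-siRNA, against 102 and 87.6 in Huh7, so the HepG2 value rests on fewer reads. It was not past 1.5-fold in HepG2 with FPKM. All 9 hepatocyte markers were higher in HepG2 COP1-siRNA (median log2 change 0.40, from ALB at 0.08 to FGB at 1.05), against 48.3% of all genes kept. In Huh7 COP1-siRNA 8 of 9 were lower (median −0.11), against 50.1% of all genes kept. That Huh7 median lay between the quartiles of all genes kept, −0.152 and 0.143, and near the pathway median of −0.118. The part of these markers in the CREB3L3 values was not tested.

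Below the thresholds the roles differed in direction, by small amounts. Of all genes kept, 50.1% were lower in Huh7 (quartiles −0.152 and 0.143) and 51.7% in HepG2 (quartiles −0.145 and 0.127). Each role median lay between those quartiles, except that of the degradation genes in HepG2, which at −0.149 was just past the lower one. All 11 chaperones were lower with COP1-siRNA in Huh7, with a median log2 change of −0.12, and 7 of 11 were lower in HepG2 (median −0.04). CALR, with −0.01 in Huh7, turned to a small increase under 1 of the other settings, so the count rests on a value near 0. After CANX, the chaperones lowest relative to control in Huh7 were DNAJB9 (−0.38), SDF2L1 (−0.36) and HSP90B1 (−0.24), while in HepG2 the same genes had −0.04, −0.06 and −0.16. The 4 genes of disulfide exchange were all lower in Huh7 (median −0.15), with PDIA4 at −0.32, and 3 of 4 were lower in HepG2 (median −0.04). Of the degradation genes 3 of 4 kept were lower in Huh7 (median −0.06) and 5 of 5 in HepG2 (median −0.15). These counts too rest on values near 0. EDEM1 in Huh7 (−0.00286) turned to an increase under 2 settings, and HERPUD1 in HepG2 (−0.0121) under 1. DERL3 had a mean read depth of only 1.62 and 1.69 in HepG2. Of the 7 sensors and factors 5 were lower in Huh7 (median −0.125) and 5 were higher in HepG2 (median 0.06).

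The 7 genes of the ATF4 branch had medians above 0 in both lines. Of these 5 were higher with COP1-siRNA in Huh7 (median log2 change 0.13), where 49.9% of all genes kept were higher. In HepG2 5 were higher (median 0.12), NUPR1 at 0.00376 among them, against 48.3% of all genes. The longer list of other ATF4 targets differed from this in Huh7, where 16 of 24 were lower (median −0.09), while in HepG2 16 of 25 were higher (median 0.10). CHAC1, which degrades glutathione, was 4.70 and 6.89 TPM in Huh7 and 2.12 and 3.02 TPM in HepG2, with log2 changes of 0.47 and 0.36. Its mean read depth was between 1.77 and 5.75, the lowest of these 7 genes. GADD34 (PPP1R15A), the phosphatase subunit that restores translation, was 78.8 and 106 TPM in Huh7 and 21.7 and 25.1 TPM in HepG2, with changes of 0.43 and 0.21.

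The other phosphatase subunit of that kind, PPP1R15B, was 39.8 and 48.3 TPM in Huh7 and 53.7 and 58.4 TPM in HepG2 (log2 changes 0.27 and 0.12). Asparagine synthetase (ASNS) was 37.6 and 39.3 TPM in Huh7 and 120 and 146 TPM in HepG2 (0.06 and 0.28). The readthrough gene CZ1P-ASNS on the same strand was 0.895 and 3.5 TPM in HepG2, so reads may have been divided between them. ATF4 itself differed by −0.01 and 0.01 between the siRNAs. With depth-scaled coverage in place of TPM, its Huh7 change was 0.18.

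NUPR1, a stress-induced chromatin protein, was 6.31 and 4.58 TPM in Huh7 and 2.06 and 2.07 TPM in HepG2, with log2 changes of −0.39 and 0.00376. The mTOR inhibitor DDIT4 was 6.57 and 7.26 TPM in Huh7 and 38.2 and 37.5 TPM in HepG2 (0.13 and −0.03). The secreted glycoprotein STC2 was 9.18 and 8.59 TPM in Huh7 and 23.6 and 21.9 TPM in HepG2 (−0.09 and −0.11). For DDIT4 and STC2 the difference between lines was far larger than any difference with siRNA.

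Over the whole list the median log2 change was −0.118 in Huh7, where 25 of 33 genes were lower (75.8%), against −0.000833 over all 13000 genes kept, 50.1% of which were lower. In HepG2 it was −0.00456, with 19 of 34 genes lower, against −0.00803 over all 14456 genes kept. The changes in the lines went the same way for 22 of 33 genes (66.7%), against 60.2% of the 11970 genes kept in both. Across the 33 genes, which share the 4 libraries and are not independent, Pearson's r was 0.492 and Spearman's rho 0.405. Without CANX, r was 0.291 and rho 0.348, and 65.6% went the same way. Over all genes r was 0.294 and rho 0.291.

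**Figure D2:**
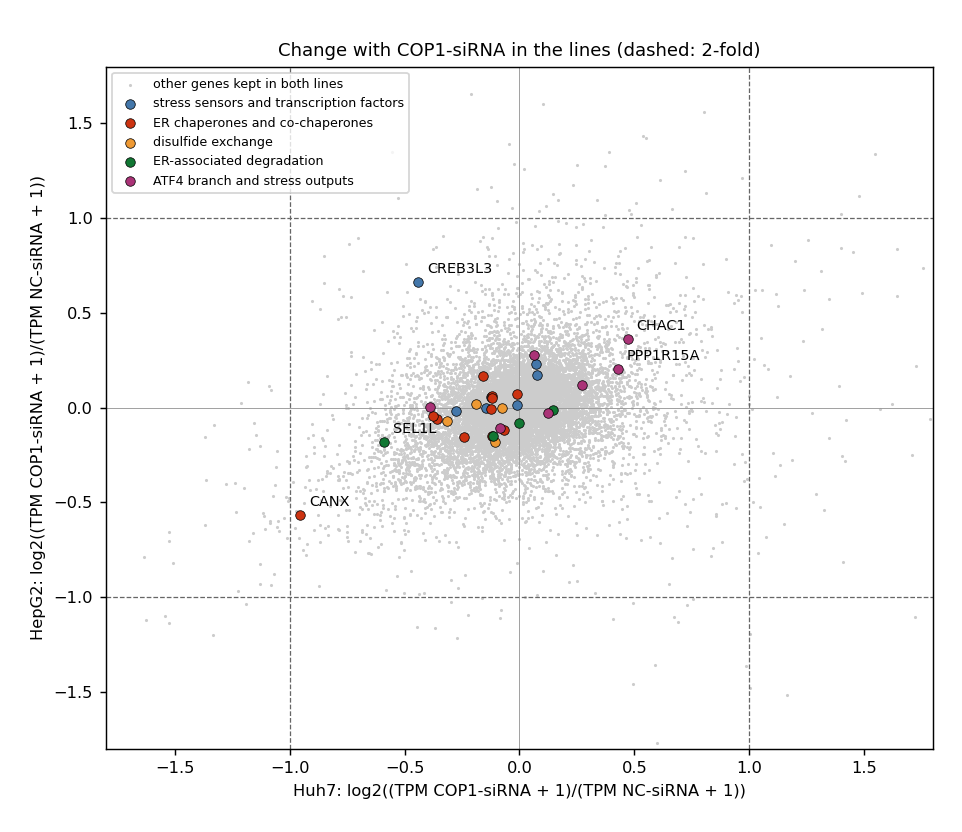
Log2 change with COP1-siRNA in Huh7 (horizontal) and HepG2 (vertical), with pseudocount 1, for genes kept in both lines; coloured points are 33 genes of the pathway by role and grey points are other genes within the axes. CANX lies at −0.96 and −0.57, CREB3L3 at −0.44 and 0.67, and no coloured point is beyond the dashed 2-fold lines.

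A single fit over the 4 libraries asked for an siRNA effect shared by the lines. It was a limma model of log2(TPM + 1) with terms for line and siRNA, over 14741 genes, with Benjamini-Hochberg adjustment. It has 1 residual degree of freedom, which is the difference of the siRNA effect between the lines, so it treats the lines as replicates of each other. No gene of the pathway and no gene at all passed an adjusted p of 0.05, which is 0.0% of all genes in either direction. With median-of-ratios scaling it called 6 genes and with a minimum TPM of 5 it called 13, none of them of the pathway. At an unadjusted p under 0.05 there were 1644 genes (11.2%), and 5 of the 33 pathway genes in the fit, HSP90B1, CANX, SEL1L, CHAC1 and PPP1R15A.

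CANX had the smallest p of the pathway in that limma fit, with a log2 change of −0.76 ± 0.105 (SE) and a limma adjusted p of 0.13, lower in 2 of 2 lines. Over the other settings the limma adjusted p of CANX lay between 0.065 and 0.65. PPP1R15A had 0.32 ± 0.0942 (SE) and CHAC1 0.42 ± 0.133 (SE), with limma adjusted p of 0.3 and 0.332, higher in 2 of 2 lines. None of these held after adjustment.

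The lines differed far more than the siRNAs did. XBP1, the major chaperones, the protein disulfide isomerase PDIA4 and the mannosidase-like protein EDEM1 were higher in Huh7, and ATF4, ASNS, DDIT4 and STC2 were higher in HepG2, with either siRNA. With NC-siRNA, 11 of the 34 genes (32.4%) were at least 2-fold higher in Huh7, against 14.7% of the 15055 genes kept, and 5 (14.7%) at least 2-fold higher in HepG2, against 27.9% of all genes. With COP1-siRNA it was 10 of 33 (30.3%) against 14.0% and 4 of 33 (12.1%) against 26.0%. With median-of-ratios scaling, 17 of the 34 genes (50%) were at least 2-fold higher in Huh7 with NC-siRNA, against 19.1% of all genes. These comparisons have 1 library on each side and no test, and the background shares are given beside the counts only for reading them.

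Past 2-fold with both siRNAs were 10 genes higher in Huh7 (30.3%, against 12.8% of genes kept in both comparisons) and 4 higher in HepG2 (12.1%, against 23.6%). The comparisons with NC-siRNA and with COP1-siRNA use different libraries, and both share their libraries with the siRNA comparisons. NUPR1 and DERL3 were past 2-fold with NC-siRNA but not with COP1-siRNA. No fold is given for DERL3, since it was listed at 0 in Huh7.

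XBP1 was 4.17 times as high in Huh7 as in HepG2 with NC-siRNA and 3.48 times with COP1-siRNA. DNAJB9, a co-chaperone of BiP that restrains IRE1, was 66.9 and 51.3 TPM in Huh7 and 13.8 and 13.4 TPM in HepG2, a ratio of 4.84 with NC-siRNA and 3.84 with COP1-siRNA. EDEM1, which directs misfolded glycoproteins to degradation, was 36 and 35.9 TPM in Huh7 and 10.8 and 10.1 TPM in HepG2, a ratio of 3.35 and 3.55. These genes had the largest Huh7 excess of the XBP1 side of the pathway, and each was higher in Huh7 with either siRNA.

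HSPA5 was 2.36 and 2.08 times as high in Huh7 as in HepG2 with NC-siRNA and COP1-siRNA, and HSP90B1 2.15 and 2.03 times. DNAJC3, a co-chaperone that also inhibits eIF2-alpha kinases, was 48.3 and 44.3 TPM in Huh7 and 21.8 and 19.6 TPM in HepG2. PDIA4 was 393 and 315 TPM in Huh7 and 160 and 153 TPM in HepG2. All 11 chaperones were higher in Huh7 with both siRNAs, though CANX with COP1-siRNA was level (a log2 difference of −0.00138) and turned the other way under 2 of the settings tried. Of all genes kept, 37.0% were higher in Huh7 with NC-siRNA and 36.9% with COP1-siRNA.

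CREB3L3 had the largest ratio among the genes above 0 in every library, 14.5 times as high in Huh7 with NC-siRNA and 5.85 times with COP1-siRNA. PPP1R15A was 3.64 and 4.23 times as high in Huh7. On the HepG2 side, DDIT4 was 5.81 and 5.16 times as high as in Huh7, ASNS 3.19 and 3.71 times, ATF4 2.92 and 2.97 times and STC2 2.57 and 2.55 times. PPP1R15A is thus an ATF4-branch gene with the order of the chaperones, and the branch did not divide between the lines as a block.

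**Figure D3:**
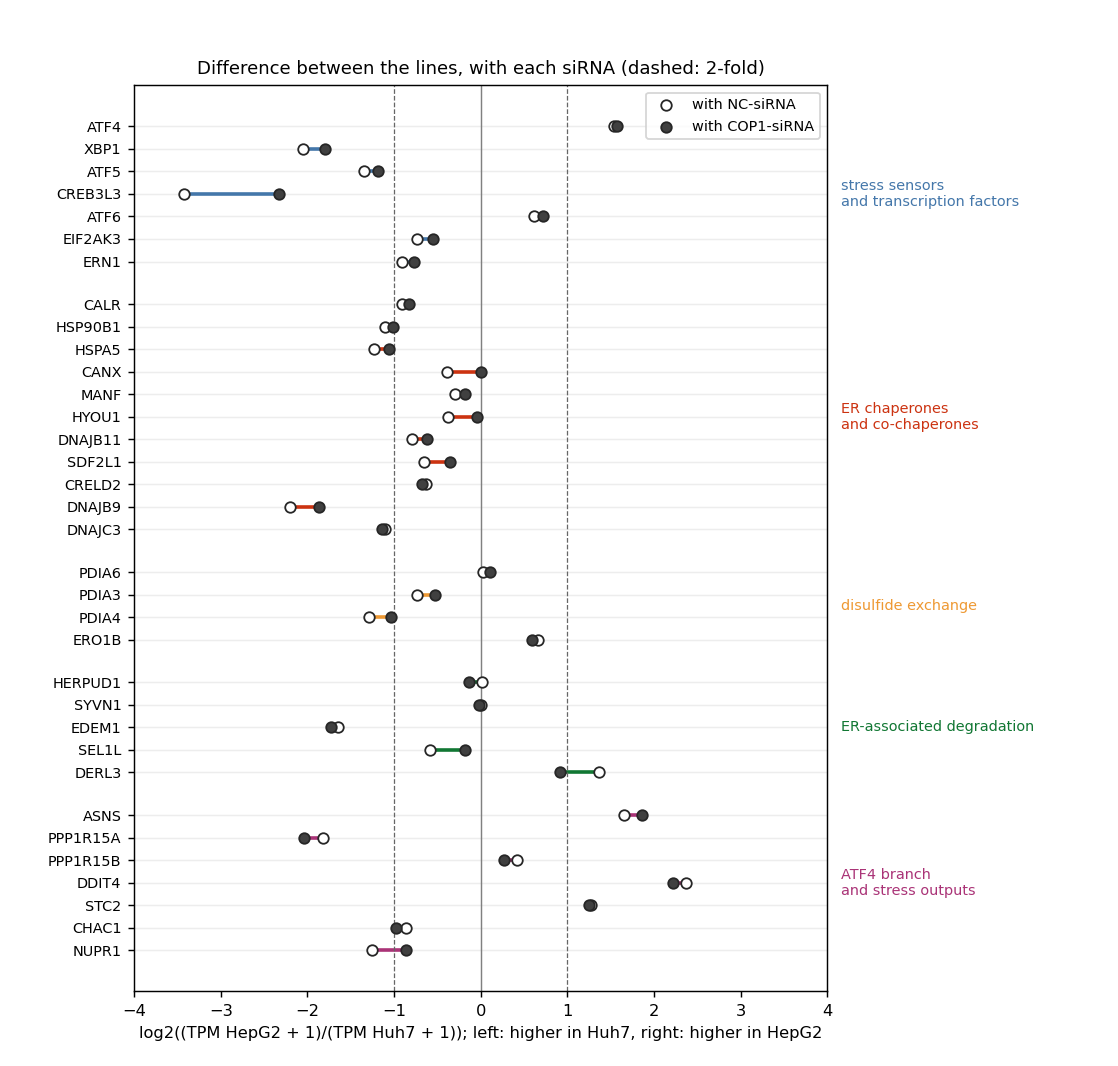
Log2 difference between the lines, HepG2 over Huh7 (pseudocount 1), for each of the 34 genes with NC-siRNA (open) and COP1-siRNA (filled), grouped by role. The filled and open symbols of most genes lie close together, 10 genes are left of the 2-fold line and 4 right of it with both siRNAs, and CREB3L3 shows the widest gap between them.

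The remaining genes differed less. PDIA6, a disulfide isomerase that also acts on the sensors, was 407 and 386 TPM in Huh7 and 415 TPM in both HepG2 libraries. HERPUD1, a scaffold of the degradation complex, lay between 35.4 and 39.2 TPM in all 4 libraries. PDIA3, the isomerase that works with calnexin and calreticulin, was 432 and 380 TPM in Huh7 and 259 and 262 TPM in HepG2. The oxidase ERO1B was 4.74 and 4.33 TPM in Huh7 and 8.07 and 7.01 TPM in HepG2, the only gene of disulfide exchange that was over 1.5 times as high in HepG2 as in Huh7.

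Of the smaller chaperones, MANF, a secreted survival factor of the ER, was 210 and 193 TPM in Huh7 and 170 and 169 TPM in HepG2. The BiP co-chaperone DNAJB11 was 181 and 166 TPM in Huh7 and 104 and 108 TPM in HepG2. HYOU1, the exchange factor of BiP, was 170 and 152 TPM in Huh7 and 131 and 147 TPM in HepG2, so its line difference nearly closed with COP1-siRNA. SDF2L1 (107 and 83.1 against 67.7 and 64.8 TPM) and CRELD2 (70.2 and 67.0 against 44.9 and 41.4 TPM) were also higher in both Huh7 libraries than in both HepG2 libraries.

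In the limma fit, 21 of 33 genes were called higher in Huh7 (63.6%) and 7 higher in HepG2 (21.2%), at adjusted p under 0.05. Over all 14741 genes the shares ran the other way, with 27.8% higher in Huh7 and 51.8% higher in HepG2. The genes called higher in HepG2 were ATF4, ATF6, ERO1B, ASNS, PPP1R15B, DDIT4 and STC2, and HYOU1, CANX, PDIA6, HERPUD1 and SYVN1 were not called. ATF4 had a log2 difference of 1.56 ± 0.0684 (SE) with limma adjusted p = 8.67e-06, and XBP1 −1.92 ± 0.0868 (SE) with limma adjusted p = 9.40e-06. The libraries of a line serve as its replicates in this fit, and since 80.8% of all genes had an unadjusted p under 0.05, a call says little about these genes in particular.

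The line difference of every gene depends on the scaling. With TPM, the median gene was higher in HepG2 by 0.369 on the log2 scale with NC-siRNA and by 0.347 with COP1-siRNA, and the median of the pathway was −0.693 and −0.555. With median-of-ratios scaling the median gene stood at 0.0641 and 0.0596 and the pathway at −1.02 and −0.858. Of the genes past 2-fold, 65.4% with NC-siRNA and 65.0% with COP1-siRNA were higher in HepG2 by TPM, and 52.1% and 51.6% after that scaling. For limma calls the share went from 65.1% to 52.1%. The pathway lay below the median gene by about the same amount either way, while ATF4 stayed higher in HepG2 under every setting tried (log2 differences from 1.20 to 1.71 with NC-siRNA).

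Summed by role, the chaperones carried most of the pathway and most of the line difference. The 11 chaperones took 5230 and 4522 TPM in Huh7 and 2877 and 2713 TPM in HepG2, which is 1.82 and 1.67 times as much in Huh7. The 4 genes of disulfide exchange took 1237 and 1084 TPM in Huh7 and 842 and 837 TPM in HepG2. The 5 degradation genes took 133 and 123 TPM in Huh7 and 99.1 and 91.9 TPM in HepG2.

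The sensors and factors summed to nearly the same level in the lines, 1151 and 1019 TPM in Huh7 and 1099 and 1115 TPM in HepG2, with the higher XBP1 of Huh7 and the higher ATF4 of HepG2 in the same sum. The ATF4 branch was the only role with a higher sum in both HepG2 libraries, 262 and 294 TPM against 183 and 221 TPM. ASNS made the largest part of that difference, with 120 and 146 TPM in HepG2 and 37.6 and 39.3 TPM in Huh7. PPP1R15B, DDIT4 and STC2 were also higher in HepG2, while CHAC1, PPP1R15A and NUPR1 were higher in Huh7. The PPP1R15B difference depended on the scaling. With COP1-siRNA it was 0.268 on the log2 scale by TPM and −0.052 with median-of-ratios scaling. The ATF4 branch was also the only role whose sum was higher with COP1-siRNA in both lines, at 121% and 112% of the control. Most of that rise was PPP1R15A in Huh7 (78.8 and 106 TPM) and ASNS in HepG2. The chaperone sums were 86.5% and 94.3% of the control. CANX was part of them, at 720 and 371 TPM in Huh7 and 549 and 370 TPM in HepG2. In HepG2 CANX fell by more than the chaperone sum did. The hepatocyte markers, like the chaperones, were mostly higher in Huh7, though within HepG2 they parted. There all 9 markers were higher with COP1-siRNA (median log2 change 0.40) and 7 of 11 chaperones lower (median −0.04). All 9 hepatocyte markers were lower in HepG2 with NC-siRNA (median log2 difference −2.69), among them albumin with 8117 TPM in Huh7 and 1509 TPM in HepG2, though APOA1 was 234 TPM in both. With COP1-siRNA 8 of 9 were lower in HepG2 (median −2.19), and APOA1 was higher, with 212 TPM in Huh7 and 317 TPM in HepG2. The part of this difference in the chaperone levels was not tested.

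**Figure D4:**
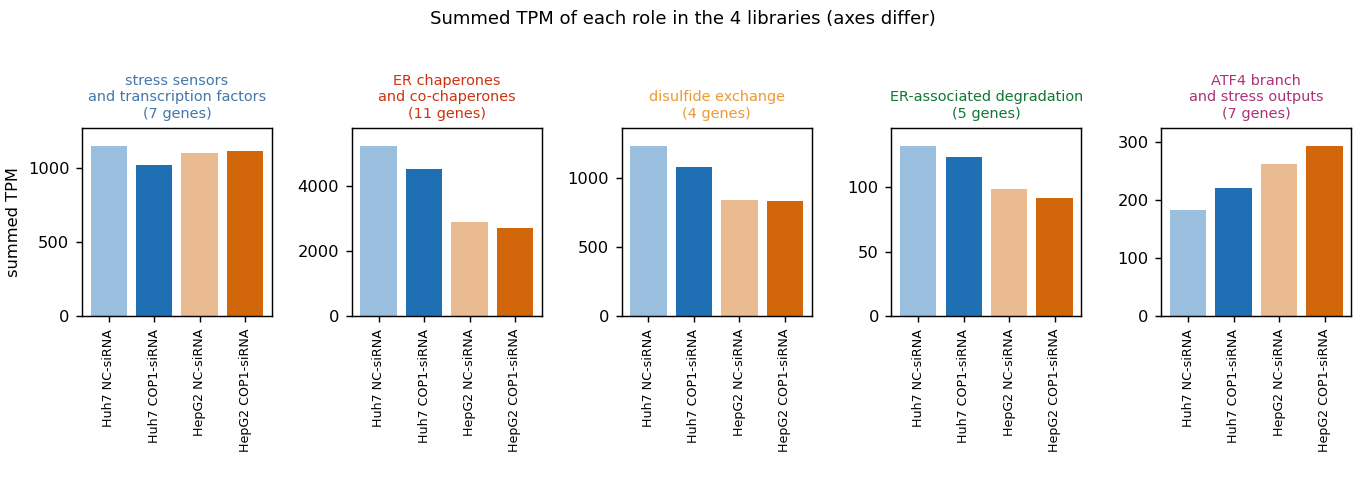
Summed TPM of the genes of each role in the 4 libraries, 1 bar per library from 0, pale for NC-siRNA and full colour for COP1-siRNA, blue for Huh7 and orange for HepG2; each panel has its own axis. The chaperone bars fall from 5230 and 4522 in Huh7 to 2877 and 2713 in HepG2, and the ATF4 branch runs from 183 to 294.

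Genes that hold ERSE or ERSE-II in the promoter had medians near those of the rest of the list. Of the 10 such genes, 9 were lower with COP1-siRNA in Huh7 (median log2 change −0.14) and 7 in HepG2 (median −0.04). Among the 21 genes with a promoter but neither element, 14 were lower in Huh7 (median −0.09) and 11 in HepG2 (median −0.00174). Between the lines the medians were −0.64 and −0.52 for the holders with NC-siRNA and COP1-siRNA, and −0.74 and −0.56 for the others. ERO1B, a holder, was higher in HepG2, and XBP1, HSPA5 and HSP90B1, also holders, were higher in Huh7.

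Genes around the pathway were looked at in 9 lists of 129 genes in all. Only IARS1, the isoleucyl-tRNA synthetase, was past 1.5-fold the same way in both lines. It was 196 and 88.8 TPM in Huh7 and 216 and 122 TPM in HepG2, log2 changes of −1.13 and −0.82. In all, 4 of the 129 genes were past 1.5-fold in Huh7 (UBE2G2, SRPRA, GDF15 and IARS1, all lower) and 2 in HepG2 (IARS1, lower, and SLC7A11, higher). Beside the 2.68% of all genes lower and 2.8% higher in Huh7, and 1.87% and 2.56% in HepG2, these counts are near or below the background. Of the 11 other eIF2-alpha kinases and translation factors none was past 1.5-fold in either line, with median changes of 0.00895 and 0.05. The median of 20 other ER folding genes was −0.11 in Huh7 and 0.06 in HepG2, close to the value of the chaperones in Huh7. Medians in Huh7 and HepG2 were −0.03 and 0.00622 for 7 genes that process the sensors, −0.01 and −0.03 for 19 other degradation genes, −0.07 and 0.03 for 12 aminoacyl-tRNA synthetases and −0.06 and −0.02 for 7 genes of mitochondrial protein folding.

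Among 25 other ATF4 targets kept with NC-siRNA, 7 (28%) were at least 2-fold higher in HepG2, against 27.9% of all genes. At least 2-fold higher in Huh7 were 6 (24.0%), against 14.7%. With COP1-siRNA it was 8 of 25 (32.0%) against 26.0% in HepG2 and 4 of 25 (16.0%) against 14.0% in Huh7. The kinase-like protein TRIB3 was 129 TPM in Huh7 and 27.9 TPM in HepG2, and the factor CHOP (DDIT3) 29.3 and 7.23 TPM, both with NC-siRNA. The mitochondrial folate enzyme MTHFD2, by contrast, was 28 TPM in Huh7 and 132 TPM in HepG2. These genes were picked after their values were seen, to show that targets of ATF4 lay on both sides, as ASNS and PPP1R15A did. Of the ER folding genes, FKBP11 was 316 TPM in Huh7 and 5.74 TPM in HepG2, a larger difference than that of any gene of the pathway.

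A 7-base sequence known from earlier results of these data to go with lower levels after COP1-siRNA, AGCAGTC, was looked up in the 3′ UTRs of the pathway (GENCODE 29, GRCh38, 1 transcript per gene). It was present in 4 of 33 genes (12.1%), against 8.94% of 10320 genes kept in both lines, a small difference. The sequence was chosen on these same libraries, so lower medians of the genes that hold it are a description and no independent evidence. The windows are shown with the sequence in capitals, because CANX and SEL1L, the genes past 1.5-fold lower in Huh7, are among the 4.
CANX: tacacaataaAGCAGTCctgttcaaat
SEL1L: atttttgattAGCAGTCaatggcaaag
XBP1: tttgacatccAGCAGTCcaaggtattg
PDIA3: aggacacagaAGCAGTCagttttaatt

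The capitals lie at chr5:179729957-179729963 on the plus strand in CANX, chr14:81474181-81474187 on the minus strand in SEL1L, chr22:28794994-28795000 on the minus strand in XBP1 and chr15:43772611-43772617 on the plus strand in PDIA3. The log2 changes of CANX, SEL1L, XBP1 and PDIA3 were −0.96, −0.59, −0.27 and −0.19 in Huh7 and −0.57, −0.18, −0.02 and 0.02 in HepG2. The 29 genes without the sequence had medians of −0.11 and −0.00174. Over all genes the medians with and without it were −0.13 and −0.000339 in Huh7 and −0.08 and −0.000481 in HepG2. The 3′ UTRs that hold it were longer, with a median of 2171 against 865 bases in the pathway and 3132 against 887 over all genes, and the part of length was not tested.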

How the data were processed

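RNA of 4 libraries (poly(A), stranded; 1 per group, groups from the sample titles) was sequenced. Per the labels, the submitters' processing notes name FastQC 0.11.7, Trimmomatic 0.38, HISAT2 2.1.0 and StringTie 2.1.3b on GRCh38. They also name edgeR, without a version. The authors deposited, per library, a table with TPM and FPKM values and a coverage signal for each gene. The deposited TPM sum to 1000000, the deposited FPKM are normalized for length and library total, and the deposited coverage is the mean read depth per base and is not normalized for depth. Read counts were not used here, so no counting interval can be given.

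The name column held no symbols, so genes were matched by NCBI gene number to RefSeq symbols (44698 of 46427 gene numbers, 96.3%). Rows of the 52 repeated gene numbers were summed, and none was a gene of the list. Changes were log2((TPM + 1)/(TPM + 1)) for genes with TPM of at least 1 in 1 of the 2 libraries compared. The thresholds were 2-fold, the fold of the study without its p-value, and 1.5-fold. A pseudocount understates changes of low genes. limma 3.58.1 (R 4.3.3, mean-variance trend) was fitted to genes with TPM of at least 1 in 2 libraries, with Benjamini-Hochberg adjustment at 0.05. Python 3.11.15, pandas 2.3.3 and matplotlib 3.10.9 did the rest. The scripts were tested on simulated data.

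Values were given for the sensors and factors, genes past 1.5-fold with siRNA, the 8 most abundant genes and genes past 2-fold between lines, and in shorter form for the others. Of the other lists, genes past 1.5-fold the same way in both lines were named. The genes, roles, lists, markers and tests were chosen with earlier results of these data known. Alternatives were a pseudocount of 0.1, FPKM, depth-scaled coverage, median-of-ratios and upper-quartile scaling, no minimum or a TPM minimum of 5, the top row alone for a repeated gene number, and limma without the trend. The 3′ UTR sequence, the relation without CANX and the rule for opposite changes were added after the values were seen. Protein sequences were not analysed here. A blood cell marker of the list is not reported here.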

Additional observations from a re-analysis of the deposited data

Results flagged for a closer look

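CREB3L3 changed in opposite directions in the lines. Its log2 change in HepG2 minus that in Huh7 was 1.11. In Huh7 it was 38.0 TPM with the control and 27.7 TPM after knockdown, and in HepG2 2.62 and 4.74 TPM. There was 1 library per group, so the difference between the lines was not tested.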

How the results depend on the processing

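Of 164 recomputed summary values 151 stayed within tolerance (counts within 1.5 times, medians within 0.1 on the log2 scale). The pathway median in HepG2, −0.00456, changed sign to 0.00199 with median-of-ratios and 0.0165 with upper-quartile scaling. Of 1126 recomputed gene changes 29 changed sign, none of them past 1.5-fold by TPM, and 12 of the 29 moved by 0.1 or more. Among these were the line differences with NC-siRNA of PDIA6, HERPUD1 and SYVN1, down to −0.31, −0.31 and −0.32. That of PPP1R15B with COP1-siRNA went from 0.268 to −0.052 with median-of-ratios scaling. With a pseudocount of 0.1, 1 pathway gene was past 1.5-fold lower in HepG2. With FPKM, 1 was past 1.5-fold lower in Huh7 and 0 past 1.5-fold higher in HepG2, and the median line difference with NC-siRNA was −0.569. With upper-quartile scaling, 1 was past 1.5-fold lower in Huh7, and the median line differences were −0.907 with NC-siRNA and −0.747 with COP1-siRNA. With median-of-ratios scaling they were −1.02 and −0.858, 17 genes were at least 2-fold higher in Huh7 with NC-siRNA, and limma called 6 genes for siRNA. With a minimum TPM of 5, 0 were past 1.5-fold higher in HepG2, because CREB3L3 was no longer kept there, and limma called 13 genes for siRNA. None of the genes so called was of the pathway. Other causes were not tested. No paired analysis was possible because the groups share only 1 replicate number. The limma fit instead has the cell line as a term, and so compares the siRNAs within lines. Leaving out a library would leave a group empty. The depth of the libraries is unknown, so small changes of genes with few reads, such as CHAC1, ERN1 and DERL3, cannot be given a precision.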

Other observations

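GDF15, a secreted stress cytokine that ATF4 and CHOP are known to drive, was 290 TPM in Huh7 NC-siRNA and 124 TPM in Huh7 COP1-siRNA, a log2 change of −1.21. In HepG2 it was 61.2 and 62.2 TPM, a change of 0.02. Of the other ATF4 targets 16 of 24 were lower with COP1-siRNA in Huh7 (median log2 change −0.09), against 50.1% of all genes kept. In HepG2 16 of 25 were higher (median 0.10), against 48.3% of all genes kept. The amino acid transporter genes of that list were higher with COP1-siRNA in both lines apart from SLC38A2. SLC7A11 was 5.81 and 7.22 TPM in Huh7 and 9.61 and 15.5 TPM in HepG2, SLC7A5 62.9 and 77.7 TPM and 131 and 190 TPM, and SLC3A2 202 and 243 TPM and 168 and 234 TPM. SLC7A1 was 20.3 and 24.9 TPM in Huh7 and 50.7 and 61.5 TPM in HepG2. SLC38A2 was 255 and 176 TPM in Huh7 and 107 and 91.7 TPM in HepG2. These genes were picked after their values were seen, and with 1 library per group the differences were not tested.

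Of the cytosolic heat shock genes 8 of 9 were lower with COP1-siRNA in Huh7 and 7 of 9 in HepG2, with median log2 changes of −0.11 and −0.09. Of all genes kept, 50.1% were lower in Huh7 and 51.7% in HepG2. HSPA1A and HSPA1B, near-identical genes whose reads cannot be divided with certainty, were 212 and 197 TPM and 163 and 155 TPM in Huh7, and 426 and 317 TPM and 744 and 535 TPM in HepG2. The 15 genes of ER translocation had a median of −0.12 in Huh7, where 13 were lower, and −0.00206 in HepG2, where 8 were lower. The medians of both lists lay between the quartiles of all genes kept, −0.152 and 0.143 in Huh7 and −0.145 and 0.127 in HepG2.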
